A study of Mus musculus with 22 samples.

Results

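Apolipoproteins are the protein parts of the particles that carry fat and cholesterol in blood, and most of them are made by hepatocytes. The 10 genes described here are Apoa1, Apoa2, Apoa4, Apoa5, Apob, Apoc1, Apoc3, Apoe, Apoh and Apom, taken by symbol from the 36555 genes of the deposited RNA table. All 10 were found once, and all 10 passed the filter on low values. The symbols were given and were not picked by a threshold on the measured values, but they were proposed with earlier results of these data known.

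The study followed mouse hepatoblastoma, a liver tumor whose driver, YAP1, is switched on by doxycycline through the rtTA3 transactivator, which in this strain is under the CAG promoter that is active in most tissues. RNA was sequenced from 4 tumors on doxycycline (YAP1on tumors) and 4 tumors off doxycycline for 6 days (day 6 tumors), all in B6N.FVB(Cg) mice with the transgene Tg(CAG-rtTA3)4288Slowe, from liver of 3 hbHep mice at days 121, 114 and 117, and from liver of 3 FAH Delta Exon 5 mice kept on NTBC, whose titles also say WT (FAH liver). The title calls the cells that tumors give rise to without YAP1 hepatocyte-like, and hbHep is the labels' name for that liver. The labels do not say whether the hbHep liver is the host's own or holds cells put into it, so an hbHep value is a value of that liver as a whole. The hbHep mice carry FAH Delta Exon 5 too; this allele removes a working Fah, the last enzyme of tyrosine breakdown, and NTBC is the drug that keeps such mice alive. The labels give no ages of the mice. They give 1 mouse code for the YAP1on tumors and 1 for the day 6 tumors, so a difference between mice and the effect of doxycycline cannot be told apart, and strain cannot be told apart from tissue between the tumors and the other 2 groups. The tumors of a group are from 1 mouse, so no p-value holds a spread between mice within a tumor group. The fit shares 1 spread per gene over all 4 groups, so the spread between hbHep mice and between FAH mice enters these p-values too.

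RNA was made from pieces of tissue, so each value is over all cells of the piece, and fewer hepatocytes and less RNA per hepatocyte cannot be told apart. Values are called abundance below; the unit is read here as scaled reads per base, so levels of different genes can be compared per length. The summed values ran from 16 to 42.1 M (M for mega) per library, and the number of reads behind them was not recovered. Yap1 lay between 5309 and 10810 in YAP1on tumors and between 932.4 and 1353 in the 10 samples of the other groups, as the labels say. Fah lay between 1470 and 2416 in YAP1on tumors, between 4347 and 5824 in day 6 tumors, between 674.1 and 1152 in hbHep and between 1544 and 1825 in FAH liver, lowest in hbHep; a gene total does not separate RNA with and without exon 5, so it does not check the allele. The summed hepatocyte markers (10 genes, such as Alb, Ttr and Asgr1, none at 0) lay between 445300 and 760400 in YAP1on tumors, between 817700 and 940500 in day 6 tumors, between 640000 and 794800 in hbHep and between 1460000 and 1850000 in FAH liver.

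Apoa1 and Apoa2 are the main proteins of high density lipoprotein (HDL), which carries cholesterol back to the liver, and Apom is a small HDL protein that binds sphingosine 1-phosphate. Apob is the large protein that stays with a very low density or low density particle from its assembly to its uptake. Apoc1, Apoc3 and Apoe move between particles: Apoe is a ligand for receptors that take particles into cells, and Apoc1 and Apoc3 slow the breakdown and uptake of triglyceride-rich particles. Apoa5 promotes lipoprotein lipase, Apoa4 is made in gut and liver and follows fat load, and Apoh (beta-2-glycoprotein I) is a plasma protein that binds phospholipid. Apoa1, Apoc3, Apoa4 and Apoa5 lie within 43.3 kb of chromosome 9 (GRCm38.p6, 46228630 to 46271921), and Apoc2, Apoc4, Apoc1 and Apoe within 29.7 kb of chromosome 7 (19671579 to 19701310). The other members lie alone, Apoa2 on chromosome 1 (171221564 to 171226379), Apoh on chromosome 11 (108395297 to 108414396), Apob on chromosome 12 (7977629 to 8016839) and Apom on chromosome 17 (35128997 to 35131801).

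The bases before the start of 5 members are shown because the results below turn on these genes: the HDL partners Apoa1 and Apoa2, whose RNA levels parted, the neighbors Apoa4 and Apoa5, which moved in opposite directions, and Apom, whose open chromatin differed most between libraries. Each run is the 250 bases before an annotated start, read 5′ to 3′ on the gene's strand, from RefSeq's GRCm38.p6; capitals mark matches to the motifs named after them.
Apoa1 (chr9:46228380-46228629, plus strand): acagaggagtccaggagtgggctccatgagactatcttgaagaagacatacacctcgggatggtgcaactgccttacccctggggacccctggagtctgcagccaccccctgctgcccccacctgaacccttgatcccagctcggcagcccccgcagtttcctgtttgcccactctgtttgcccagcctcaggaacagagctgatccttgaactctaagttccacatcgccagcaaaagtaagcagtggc
Apoa2 (chr1:171224804-171225053, plus strand, the start at 171225054): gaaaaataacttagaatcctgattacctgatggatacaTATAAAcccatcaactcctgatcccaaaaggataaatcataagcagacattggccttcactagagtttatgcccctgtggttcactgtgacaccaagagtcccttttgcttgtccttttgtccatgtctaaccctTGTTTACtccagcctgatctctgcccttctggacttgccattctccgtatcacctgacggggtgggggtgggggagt
Apoa4 (chr9:46240594-46240843, plus strand): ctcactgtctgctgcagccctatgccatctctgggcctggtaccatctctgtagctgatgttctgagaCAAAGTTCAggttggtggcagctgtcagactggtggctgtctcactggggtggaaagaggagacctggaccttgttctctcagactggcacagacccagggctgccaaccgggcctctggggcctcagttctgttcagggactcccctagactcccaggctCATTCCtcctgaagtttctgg
Apoa5 (chr9:46268358-46268607, plus strand, the start at 46268608): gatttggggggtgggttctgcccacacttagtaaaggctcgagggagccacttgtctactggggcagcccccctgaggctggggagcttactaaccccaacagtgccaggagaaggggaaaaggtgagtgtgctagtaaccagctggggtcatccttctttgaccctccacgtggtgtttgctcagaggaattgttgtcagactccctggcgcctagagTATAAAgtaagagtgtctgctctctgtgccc
Apom (chr17:35131802-35132051, minus strand): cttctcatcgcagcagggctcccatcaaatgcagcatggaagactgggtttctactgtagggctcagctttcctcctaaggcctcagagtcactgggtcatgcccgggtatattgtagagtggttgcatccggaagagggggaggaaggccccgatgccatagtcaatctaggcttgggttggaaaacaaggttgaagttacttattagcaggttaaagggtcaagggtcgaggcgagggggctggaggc

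Promoter windows of 300 bases, from 250 before to 50 after a start, were found in RefSeq for 8 of the 10 members, with 12 starts in all; Apoc1 and Apoc3 had no entry. The letters searched were CAAAGNNCA for HNF4 (a nuclear receptor of hepatocytes), GTTAATNAT for HNF1, TGTTTAC for FOXA, TTGCNNAA for C/EBP, CATTCC for TEAD (the DNA-binding partner of YAP1), CTTTGAT for TCF/LEF (the partner of beta-catenin), each on both strands, and TATAAA for a TATA box on the gene's strand. The HNF4 letters stood in a window of 3 of the 8 members (Apoa4, Apob and Apoh) and of 7.27% of all 27025 genes with a window; the narrower CAAAGTCCA stood in none of the 8 and in 0.555% of all genes. FOXA letters stood in 3 (Apoa2, Apoe and Apoh; 4.05% of all genes), C/EBP in 2 (Apoa2 and Apob; 12.2%), TEAD in 2 (Apoa4 and Apoe; 16.6%), TATAAA in 4 (Apoa2, Apoa5, Apob and Apoe; 9.77%), and the letters of HNF1 (0.94% of all genes) and TCF/LEF (4.29%) in none. In Apoa4 the HNF4 match runs from 182 to 174 bases before the start and the TEAD match from 21 to 16; in Apoa5 TATAAA begins 31 bases before the start. In Apob the HNF4 and C/EBP letters lie close together but do not overlap. The C/EBP letters of Apoa2 lie only in the window of its other start, at 171221564, whose bases are not shown. TATAAA begins 212 bases before the start in Apoa2 (the start shown), 96 in Apoe and 60 in Apob. These are matches of letters and no more; no binding was measured at them.

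Together the 10 RNAs took 2.22 ± 0.45% of all summed signal in YAP1on tumors (SD, n = 4), 3.26 ± 0.3% in day 6 tumors (n = 4), 5.78 ± 0.54% in hbHep (n = 3) and 5.43 ± 0.43% in FAH liver (n = 3). Most of the added signal in the latter 2 groups was Apoe, which ranked 2 among all genes in every hbHep mouse and 2 or 3 in FAH liver. The member with the lowest level per length was Apoa5 in YAP1on tumors, Apoa4 in day 6 tumors (rank 2818 to 4742 among all genes) and Apom in hbHep (rank 1111 to 1622) and FAH liver.

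**Figure D1:**
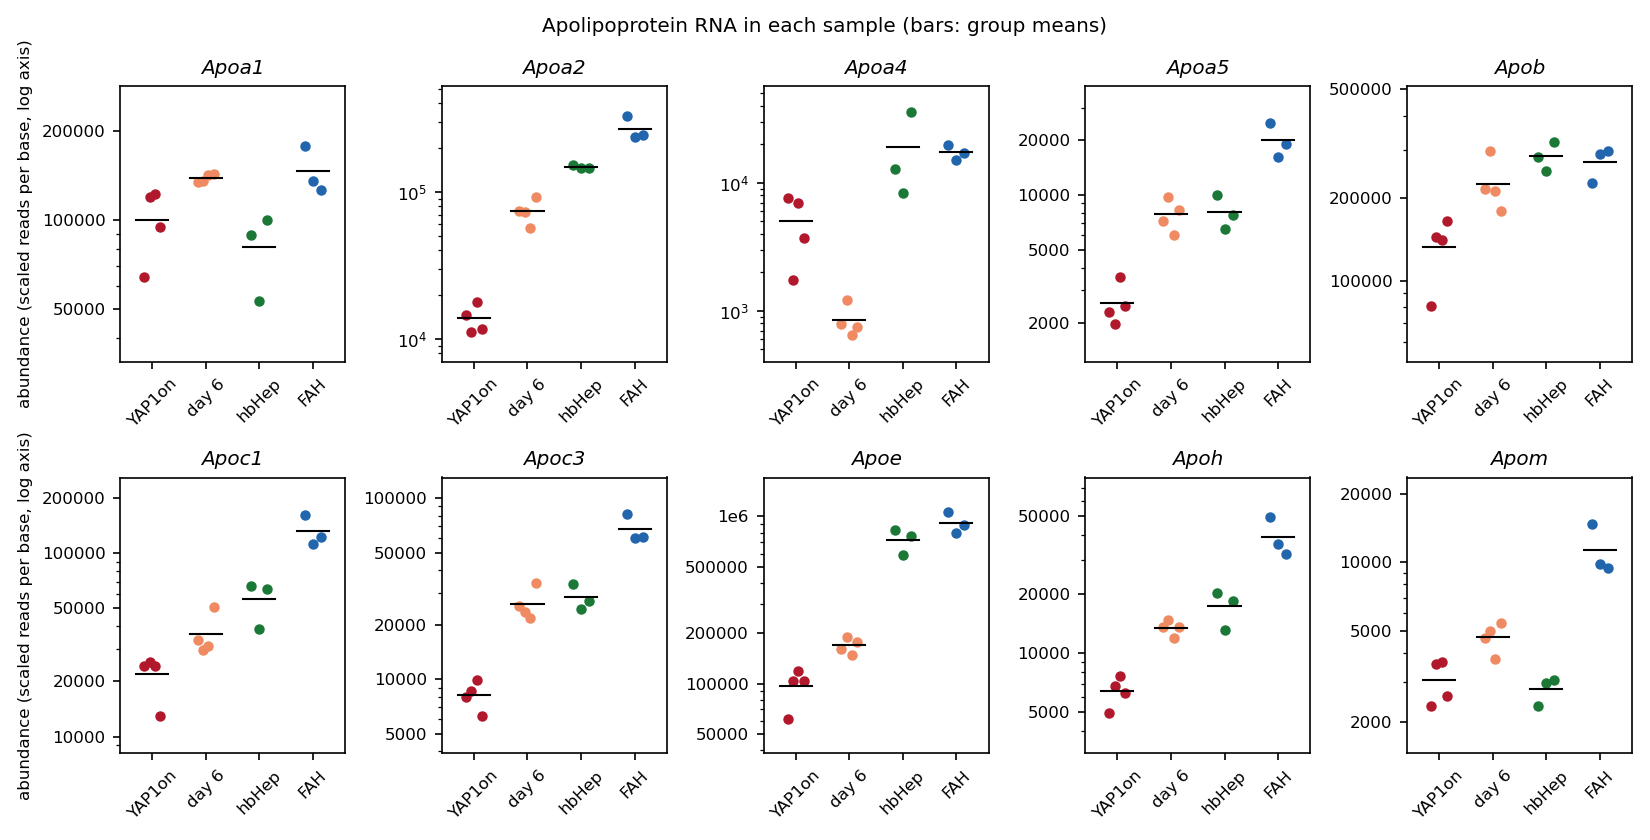
Abundance of each apolipoprotein RNA (vertical log axis, scaled reads per base) in every sample of the 4 groups; points are samples, bars are group means, and the axis range differs between panels. Apoa2 steps up across the 4 groups, Apoa4 is lowest in day 6 tumors, Apoe is high in hbHep and FAH liver, and Apom is as low in hbHep as in YAP1on tumors.

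The 10 RNAs were compared first between tumors on doxycycline and tumors 6 days off it. Apoa2, Apoa5, Apoc3, Apoh and Apom rose, Apoa4 fell, and Apoa1, Apob, Apoc1 and Apoe did not pass the test (limma, adjusted p below 0.05 over all 17958 genes tested). Of all genes tested, 12.8% were called higher and 10.9% lower. The median log2 fold change was 0.81 over the 10 members and 0.02 over all genes. In each of the 10 members the 4 day 6 tumors and the 4 YAP1on tumors did not overlap, as in 32% of all genes tested.

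Apoa2 was measured at 14580, 11250, 17740 and 11660 in the YAP1on tumors and at 74590, 72970, 56830 and 92920 in the day 6 tumors. Every day 6 tumor was at least 3 times as high as any YAP1on tumor. This was the largest rise among the members, by 2.43 on the log2 scale (SE 0.24, limma adjusted p = 2.66e-06). Its HDL partner Apoa1 stood at 64450, 119400, 122800 and 94510 in YAP1on tumors and at 134200, 136200, 142200 and 143500 in day 6 tumors. The day 6 tumors were close together and all above the YAP1on tumors, which were widely spread, and the difference of 0.52 (SE 0.3, adjusted p = 0.241) did not pass. Apom, the third HDL protein, went from 3047 ± 684 to 4716 ± 696 (SD, n = 4 each), a log2 fold change of 0.65 (SE 0.18, adjusted p = 0.0183). That call was the least stable of the 6: it was lost on leaving out YAP1on tumor 1 (adjusted p = 0.059) or 4 (0.0527) or day 6 tumor 2 (0.0524) or 4 (0.0593), and with equal sums (0.0805) or quantile normalization (0.0676).

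On chromosome 9 the neighbors did not move as a block. Apoc3 rose from 8197 ± 1510 to 26160 ± 5360, by 1.67 on the log2 scale (SE 0.19, adjusted p = 1.43e-05). Apoa5 rose from 2566 ± 681 to 7803 ± 1560, by 1.62 (SE 0.21, adjusted p = 3.31e-05). Between these neighbors, Apoa4 was at 7655, 1754, 6902 and 3719 in YAP1on tumors and at 785.9, 1210, 641.8 and 742 in day 6 tumors. The YAP1on tumors spread more than 4-fold, yet the lowest of them was above the highest day 6 tumor. Apoa4 thus fell by 2.39 (SE 0.44, adjusted p = 0.000965), while both genes beside it rose. All 3 calls were kept in each of the 14 fits that left out 1 sample.

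Apob stood at 81240, 144200, 140600 and 165700 in YAP1on tumors and at 215700, 298000, 212400 and 179100 in day 6 tumors. Apoe stood at 61390, 104000, 118900 and 103800, against 161500, 189700, 149100 and 176200. In both genes tumor 1 was the lowest YAP1on tumor, and both groups were apart. The log2 differences were 0.79 for Apob (SE 0.34, adjusted p = 0.114) and 0.84 for Apoe (SE 0.37, adjusted p = 0.118). Neither passed with a spread that follows abundance, and both passed when the model used a spread without that trend (adjusted p = 0.0205 and 0.00843). Apoe also passed in a model of only the 2 groups (0.0442). Apoc1 differed by 0.75 (SE 0.27, adjusted p = 0.0608), with YAP1on tumor 4 at 13030 and the other 3 between 24280 and 25680; it passed in the model of only the 2 groups (0.0437) and in the fit without hbHep mouse 2 (0.0368). Apoh, the phospholipid-binding protein, rose from 6412 ± 1130 to 13500 ± 1130, by 1.09 (SE 0.18, adjusted p = 0.000461).

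Markers of other cell types moved between the tumor groups too. Of the 10 hepatocyte markers 4 rose and none fell (median log2 fold change 0.54), of 15 macrophage and Kupffer cell markers 4 fell (Csf1r, C1qb, Cd163 and Trem2) and none rose, and of 7 cholangiocyte markers tested 5 fell. All 8 cycling cell markers fell, with a median of -3.06. In the other direction, 0 markers of these 4 lists had an unadjusted p under 0.05. Of 10 stellate cell and fibroblast markers 4 fell (Col1a1, Col1a2, Acta2 and Timp1) and none rose (1 at an unadjusted p under 0.05), and of 7 T, NK and B cell markers tested 3 rose (Cd8a, Nkg7 and Cd79a) and none fell, with a median of 0.86 (0 at an unadjusted p under 0.05). The part of these changes in the apolipoprotein results was not tested.

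In hbHep, 8 of the 10 RNAs were higher than in YAP1on tumors and none was lower. The 2 that were not called were Apoa1, at 89440, 53250 and 100100 in the 3 mice, and Apom, at 2336, 2972 and 3066. Both overlapped the YAP1on tumors, and the direction of their differences, -0.32 for Apoa1 (SE 0.32, adjusted p = 0.42) and -0.11 for Apom (SE 0.2, adjusted p = 0.664), was the same under the other scalings. With equal sums both were called lower (adjusted p = 0.0209 for Apoa1 and 0.011 for Apom), as they were with quantile normalization (0.037 and 0.00381). Of all genes tested, 28.7% were called higher and 26.5% lower, with 45.4% lower under equal sums and 28.3% under quantile normalization. The hepatocyte markers went both ways in this comparison: Ttr (2.03), Asgr1 (1.87) and Tat (0.82) were higher and Serpina1a (-1.61) and Fgb (-1.33) lower, of 10. All 5 neutrophil markers tested were lower (median -3.13), as were 8 of 15 macrophage markers (1 higher), 5 of 10 stellate cell and 5 of 7 cholangiocyte markers and all 8 cycling cell markers. Their part in the result was not tested.

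Apoa2 reached 153000, 144700 and 145000 in the 3 hbHep mice, 10.9-fold the YAP1on level (log2 fold change 3.44, SE 0.26, adjusted p = 4.28e-08). Apoe reached 828000, 589700 and 761600, 7.63-fold (2.93, SE 0.4, adjusted p = 1.83e-05). These were the 2 largest differences among the members. Apob was at 282600, 252100 and 320800, a log2 fold change of 1.14 (SE 0.37, adjusted p = 0.0168). The Apob call was lost with equal sums (adjusted p = 0.0668), with quantile normalization (0.273), without hbHep mouse 3 (0.06) and in a model of only the 2 groups (0.0663). Apoc3 (1.79), Apoa5 (1.67), Apoh (1.43) and Apoc1 (1.37) were higher as well, with adjusted p from 4.4e-06 to 0.00116. Apoa4 was higher by 1.86 (SE 0.48, adjusted p = 0.00416), but its call was lost when only the first technical library of each hbHep mouse was used (1.43, adjusted p = 0.0617).

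Between day 6 tumors and hbHep only some members differed: Apoa2, Apoa4 and Apoe were higher in hbHep and Apoa1 and Apom were lower. Of all genes tested, 24.1% were called higher and 21.7% lower, so 5 of 10 members called is near the background. Of the markers, 3 of 10 for hepatocytes were higher and 3 lower, 3 of 15 for macrophages higher and 4 lower, and all 5 for neutrophils, 6 of 7 for T, NK and B cells and 7 of 10 for stellate cells lower. All 8 for cycling cells were higher in hbHep (median 1.71). The part of these markers was not tested either. Apoa5, Apoc3 and Apoh, which had risen in day 6 tumors, overlapped between these 2 groups (Apoa5 at 7803 ± 1560 and 8095 ± 1780, n = 4 and 3). Their log2 differences were 0.05 (SE 0.22), 0.12 (SE 0.21) and 0.34 (SE 0.2), none past the test (adjusted p from 0.177 to 0.865). Apoe was 4.27-fold higher in hbHep, at 169100 ± 17600 against 726400 ± 123000 (log2 fold change 2.09, SE 0.4, adjusted p = 0.000589). Apoa2 was 2.01-fold higher (1.01, SE 0.26, adjusted p = 0.00468).

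Apoa4 was 19-fold higher in hbHep than in day 6 tumors (log2 fold change 4.25, SE 0.48, adjusted p = 5.67e-06). It was also the least reproducible member: the 3 hbHep mice were at 12890, 8266 and 35700, and the 2 technical libraries of a mouse differed by 1.88- to 3.68-fold, against 1.01- to 1.56-fold for the other 9 members. With its 2 libraries averaged, the lowest hbHep mouse was above every tumor of both groups. The first libraries of hbHep mice 1 and 2 alone (5928 and 5887 as deposited) were below YAP1on tumors 1 and 3 (7655 and 6902). Apom was lower in hbHep than in day 6 tumors by 0.75 (log2 fold change -0.75, SE 0.2, adjusted p = 0.00617), with no overlap. Apoa1 was lower too (-0.83, SE 0.32, adjusted p = 0.045), but this call held in only 4 of the 14 fits that left out 1 sample. Without hbHep mouse 2, whose Apoa1 was 53250, the difference was -0.55 (adjusted p = 0.174). Leaving out that mouse also raised the number of members called higher from 3 to 5, adding Apoc1 (adjusted p = 0.0334) and Apoh (0.0477).

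The comparison of hbHep with FAH liver asked how far the hbHep liver was from liver of mice labeled with the same Fah allele. Whether all cells of the hbHep liver carry that allele was not checked. None of the 10 RNAs was called higher in hbHep and 6 were lower: Apoa2, Apoa5, Apoc1, Apoc3, Apoh and Apom. Of all genes tested, 20% were called higher and 17% lower, and the median log2 fold change was -1.03 over the members and 0 over all genes. In this and the other comparisons in which limma called none of the members in a direction, 0 members had an unadjusted p under 0.05 in that direction.

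Apom was the furthest below, at 2336, 2972 and 3066 in hbHep and 14720, 9814 and 9466 in FAH liver. The highest hbHep mouse was far below the lowest FAH mouse, and the log2 fold change was -2.0 (SE 0.21, adjusted p = 4.16e-06). Another 4 members were lower by less: Apoa5 at -1.30, Apoc1 at -1.26, Apoc3 at -1.25 and Apoh at -1.17 (SE 0.21 to 0.32, adjusted p from 0.000503 to 0.00594). The Apoc1 call was lost with quantile normalization (-0.35, adjusted p = 0.333). Apoa2 was 0.85 lower (SE 0.27, adjusted p = 0.0242), a call that was lost without hbHep mouse 3 (adjusted p = 0.0573), without FAH mouse 1 (0.0762), with equal sums (0.263) and in a model of only the 2 groups (0.158), and whose direction turned with quantile normalization (0.11).

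Apoe, Apob and Apoa4 overlapped between hbHep and FAH liver. Apoe stood at 1069000, 799100 and 884000 in FAH liver, and the difference was -0.34 (SE 0.43, adjusted p = 0.57). Apob stood at 226600, 290000 and 297300, with a difference of 0.08 (SE 0.4, adjusted p = 0.904). Apoa4 stood at 19870, 15040 and 17030, with a difference of -0.14 (SE 0.51, adjusted p = 0.859). These standard errors leave room for differences of about the size seen in the called members, so the values do not show that the levels are alike. Apoa1 was lower in every hbHep mouse than in any FAH mouse, and missed the threshold (-0.89, SE 0.34, adjusted p = 0.0525); it passed without the variance trend (0.0198), without hbHep mouse 3 (0.0481) and without YAP1on tumor 1 (0.0242).

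Macrophages make Apoe as well as hepatocytes, and their markers differed between these groups. The 15 macrophage and Kupffer cell markers summed to between 12690 and 34340 in hbHep and between 6001 and 10850 in FAH liver, 10 of them were called higher in hbHep and 1 lower, and none was at 0. In the tumors the same sum was 32630 to 45860 (YAP1on) and 20220 to 25800 (day 6). The part of these cells in the Apoe values was not tested. Of the hepatocyte markers 5 of 10 were lower in hbHep than in FAH liver and none was higher (median -0.80), and 3 of 7 cholangiocyte and 3 of 7 T, NK and B cell markers were higher. All 8 cycling cell markers were higher in hbHep too (median 2.28).

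YAP1on tumors were below FAH liver in 9 of the 10 members and above in none, and day 6 tumors in 8 and none. Of all genes tested, 34.6% were called higher and 33.3% lower in YAP1on tumors against FAH liver, and 31.8% and 30.9% in day 6 tumors. The median over the members was -2.62 for YAP1on tumors and -1.44 for day 6 tumors. In YAP1on tumors the furthest were Apoa2 (19.5-fold lower), Apoe (9.66-fold), Apoc3 (8.25-fold) and Apoa5 (7.81-fold). Apob was lower by 1.07 on the log2 scale (log2 fold change -1.07, SE 0.37, adjusted p = 0.0189), the weakest of the 9 calls; it was lost with equal sums (-0.09, adjusted p = 0.808) and without FAH mouse 3 (0.055), and its direction turned with quantile normalization (0.28, adjusted p = 0.524). Apoa4 was lower by 2.0 (log2 fold change -2.0, SE 0.48, adjusted p = 0.00176), a call lost with equal sums (-1.02, adjusted p = 0.0547) and with quantile normalization (-0.90, 0.131). Apoa1 was the member that was not called, at -0.58 (SE 0.32, adjusted p = 0.122), and turned to 0.78 (adjusted p = 0.0115) with quantile normalization. In day 6 tumors Apoa4 was 20.9-fold below FAH liver, and Apoa1 (-0.06, SE 0.32) and Apob (-0.28, SE 0.37) overlapped it; both turned with quantile normalization (0.76 and 1.14), and Apoa1 with equal sums (0.64). Against FAH liver 6 of 10 hepatocyte markers were lower in YAP1on tumors and 5 in day 6 tumors, 13 and 12 of 15 macrophage markers were higher, as were all 5 neutrophil and all 7 T, NK and B cell markers tested in both. Of 8 cycling cell markers, 8 were higher in YAP1on tumors (median 3.61) and 2 in day 6 tumors (median 0.20). The part of these markers was not tested. All 3 comparisons with FAH liver use the same 3 FAH samples.

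**Figure D2:**
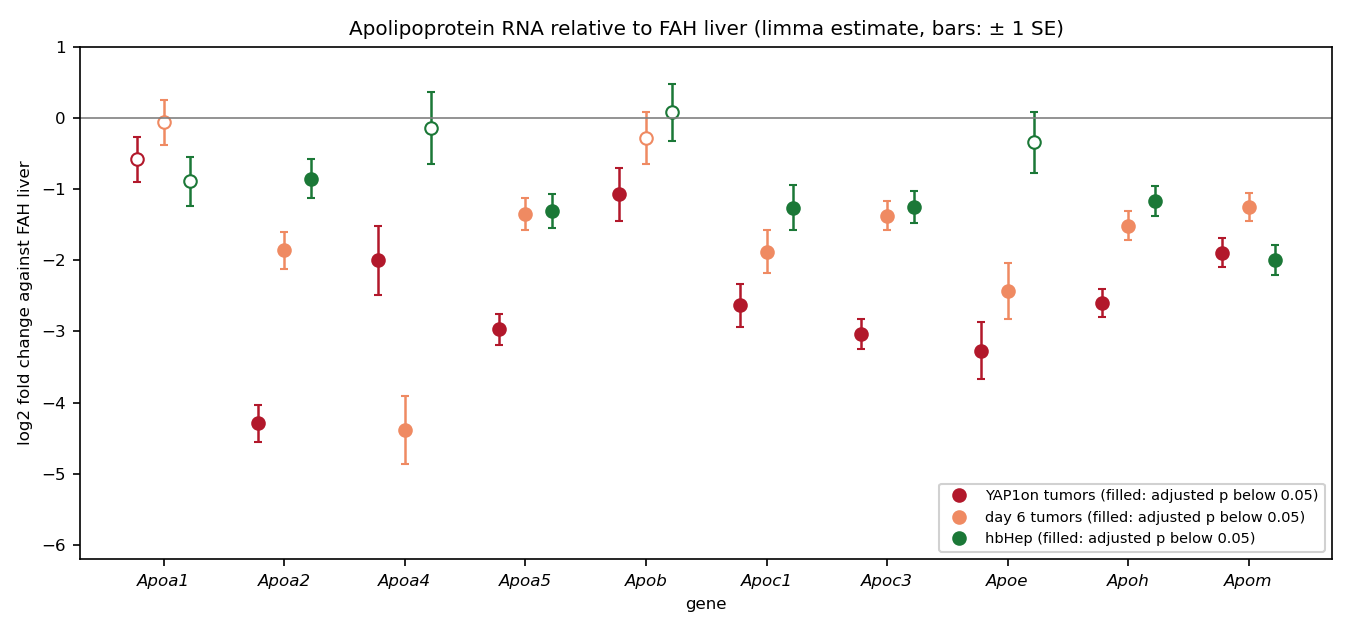
Log2 fold change of each apolipoprotein RNA against FAH liver (vertical axis) for YAP1on tumors, day 6 tumors and hbHep; bars are ± 1 SE of the limma fit, filled points passed an adjusted p of 0.05 and open points did not. Most members are nearest to FAH liver in hbHep, Apoa5, Apoc3 and Apoh lie almost as near in day 6 tumors, Apoa4 is furthest in day 6 tumors, and Apom is as far in hbHep as in YAP1on tumors.

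The order of the 4 groups therefore differed between members. Apoa2 was the only member in which every step of the order (YAP1on, day 6, hbHep, FAH liver) passed the test and had no overlap, although the last step depends on the settings given above. Apoa5, Apoc3 and Apoh had the same order of means, with day 6 tumors and hbHep not distinguishable. In Apoe the step that passed was from day 6 tumors to hbHep, and in Apoc1 that from hbHep to FAH liver, except with quantile normalization; their other steps did not pass. In Apob no step between neighbors in the order passed. Apoa4 ran from day 6 tumors up to YAP1on tumors and then to FAH liver and hbHep, which overlapped (the step to FAH liver depends on the scaling, as given above), and Apom from hbHep and YAP1on tumors, which overlapped, up to day 6 tumors and FAH liver. Apoa1 had no step that passed and the narrowest range of group means, 0.89 on the log2 scale, against 4.39 for Apoa4 and 4.29 for Apoa2.

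A ratio of 2 RNAs within a library does not depend on the factor by which that library is divided. Quantile normalization is not such a factor and can change a ratio, and no ratios were computed with it. Apoa1 was 7.52 ± 2.57 times Apoa2 in YAP1on tumors (SD, n = 4), 1.93 ± 0.407 times in day 6 tumors (n = 4), 0.548 ± 0.164 times in hbHep (n = 3) and 0.548 ± 0.0274 times in FAH liver (n = 3). No sample of either tumor group overlapped those of the other 3 groups, and hbHep and FAH liver overlapped. The ratio of Apoa4 to Apoa5 was 0.0893 to 0.125 in the 4 day 6 tumors and 0.808 to 4.6 in the 10 other samples. The ratio of Apoc3 to Apoa4, which lie 5.207 kb apart, was 19.4 to 45.7 in day 6 tumors and 0.759 to 4.94 elsewhere. The 4 day 6 tumors thus stood apart from all other samples in both ratios that hold Apoa4. The ratio of Apoe to Apoc1, also neighbors, was 12 to 15.3 in hbHep, 6.61 to 7.24 in FAH liver and 2.53 to 7.96 in the 8 tumors. The ratio of Apoa1 to Apoc3 was 12.3 ± 3.04 in YAP1on tumors, 5.45 ± 0.958 in day 6 tumors, 2.85 ± 0.77 in hbHep and 2.17 ± 0.0874 in FAH liver.

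Over 5 ratios and 6 comparisons, 30 exact permutation tests (two-sided) were made. None passed after adjustment (lowest adjusted p = 0.0902, exact permutation test), and 4 had an unadjusted exact p of 0.0286, all of them day 6 against YAP1on tumors (every ratio except Apoe to Apoc1). The design allows no p below 0.0286 with 4 against 4 samples, 0.0571 with 4 against 3 and 0.1 with 3 against 3, so no ratio could pass after adjustment over 30 tests, however far apart its groups were.

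**Figure D3:**
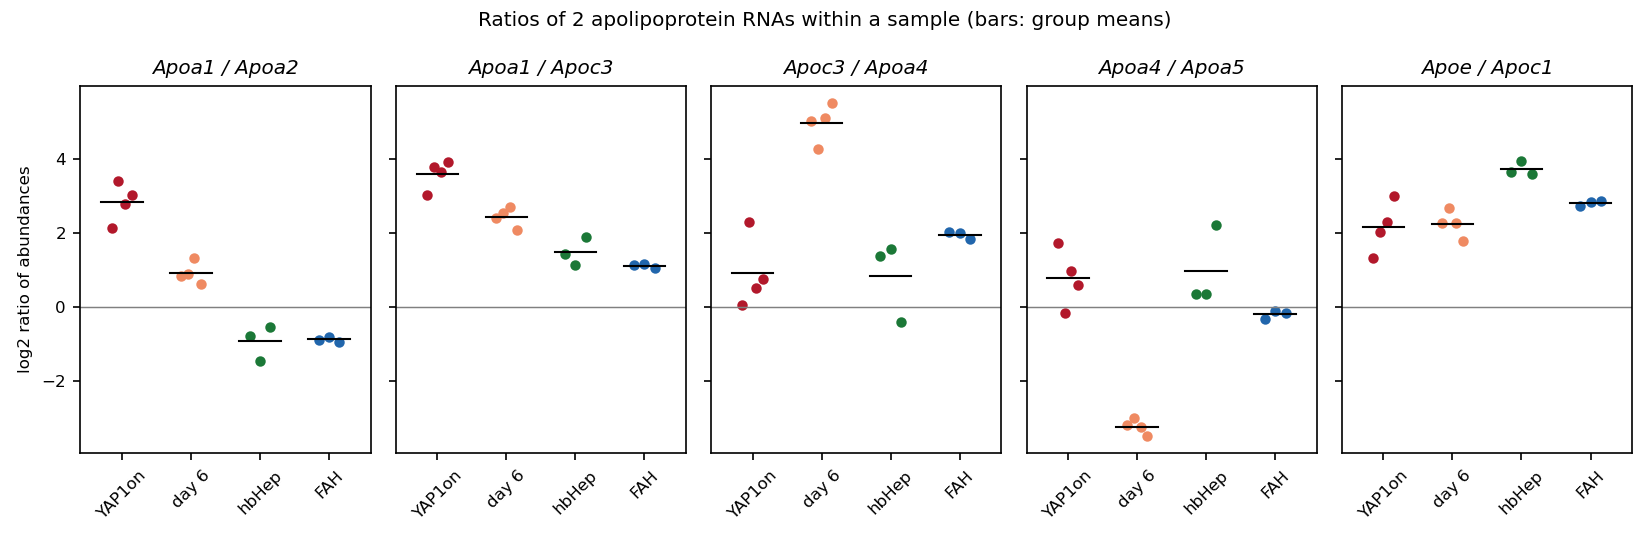
Log2 ratio of 2 apolipoprotein abundances within each sample (vertical axis) for 5 pairs of genes in the 4 groups; points are samples and bars group means. Apoa1 to Apoa2 steps down from YAP1on tumors to hbHep, and the 2 pairs with Apoa4 set the day 6 tumors apart.

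Apoa4 and Apoa1, with the widest and the narrowest range of group means, were compared with other genes over the 14 samples. Likeness was the root mean square of differences between log2 values, centered for each gene. The genes most like each were sought among 3543 genes with a mean abundance of at least 1000. For Apoa4 they were Cyp3a11 (0.91), Ephx1 (1.01) and Ugt2b35 (1.06), all enzymes of drug metabolism, so even the nearest was about 1 log2 unit away. Cyp3a11 was at 18280 in YAP1on tumors, 11330 in day 6 tumors, 114600 in hbHep and 293900 in FAH liver. For Apoa1 they were Kng1 (0.16), which encodes kininogen, Errfi1 (0.18) and Pqlc1 (0.19).

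Apoc2, the cofactor of lipoprotein lipase and a neighbor of Apoc1 and Apoe, was the other apolipoprotein with the largest steps. It was at 1602 ± 623 in YAP1on tumors, 2041 ± 510 in day 6 tumors, 10960 ± 1950 in hbHep and 27990 ± 3960 in FAH liver. As in Apoe, the step that passed on leaving the tumor groups was from day 6 tumors to hbHep (log2 fold change 2.44, SE 0.26, adjusted p = 3.83e-06), while day 6 and YAP1on tumors did not differ past the test (0.41, SE 0.25, adjusted p = 0.269). Unlike Apoe, Apoc2 did not overlap between hbHep (9288 to 13110) and FAH liver (24990 to 32480). Of 12 other apolipoprotein genes tested, 6 rose in day 6 against YAP1on tumors and none fell (median 0.97; 8 higher and 0 lower at an unadjusted p under 0.05), led by Apon (1.94), Saa4 (1.91) and Apol9b (1.24). In hbHep against FAH liver 5 were lower and 1, Apol9a (2.20), higher. The shares of all genes tested were 12.8% higher and 10.9% lower in day 6 against YAP1on tumors. They were 20% higher and 17% lower in hbHep against FAH liver.

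Of 14 genes that load fat onto Apob or export the particle, 8 rose in day 6 tumors and none fell (median 0.54; 10 higher and 0 lower at an unadjusted p under 0.05). Mttp, which moves triglyceride onto nascent Apob, rose from 3196 ± 645 to 6117 ± 905 (log2 fold change 0.95, SE 0.16, adjusted p = 0.000329). It reached 9322 ± 129 in hbHep and 15090 ± 1730 in FAH liver, and each of these steps passed (adjusted p = 0.00724 and 0.00722), the second not with equal sums (-0.14, adjusted p = 0.544) or quantile normalization (-0.16, 0.413). Tm6sf2 (1.24), Cideb (1.03) and Dgat2 (1.00), which act in lipidation and triglyceride synthesis, rose the most at day 6. In hbHep against FAH liver, 5 of the 14 were lower and 1 higher, Tm6sf2 (1.46).

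Of 4 genes of Apob mRNA editing, which in mouse liver makes the short form of Apob, 3 were higher in day 6 than in YAP1on tumors: A1cf (0.96), Rbm47 (0.56) and the deaminase Apobec1 (0.50). In that comparison 12.8% of all genes tested were called higher. The Apobec1 call was at the threshold (adjusted p = 0.0475) and was lost on leaving out any 1 of the 8 tumors and with equal sums (0.22, adjusted p = 0.313); the Rbm47 call was lost with equal sums (0.27, 0.254) and quantile normalization (0.36, 0.0976). Apobec1 itself was lowest in FAH liver, at 213.6 ± 23.7, against 409.2 ± 142 in hbHep, 567.8 ± 52.8 in YAP1on tumors and 802.3 ± 70.5 in day 6 tumors. From day 6 tumors to hbHep, Apobec1 (-1.03) and the cofactor Syncrip (-0.49) were lower, while the cofactors A1cf (0.62) and Rbm47 (0.93) were higher. A1cf was at 3590 ± 382 in hbHep and 4984 ± 787 in FAH liver (adjusted p = 0.0195), and Rbm47 at 5178 ± 547 and 9681 ± 1130 (adjusted p = 0.000261); both calls were lost with equal sums (adjusted p = 0.696 and 0.161) and quantile normalization (0.436 and 0.0707), and that of A1cf without hbHep mouse 1 (0.0549) or 2 (0.0633) or FAH mouse 3 (0.0874). The edited share of Apob RNA was not measured.

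Of 11 genes of HDL formation and remodelling, 8 were higher in day 6 than in YAP1on tumors and none lower (median 0.90), with 1 lower at an unadjusted p under 0.05. They were led by the lipases Lipc (2.34) and Lipg (1.71) and by Pon1 (1.61), an enzyme carried on HDL. Among all genes tested, 12.8% were called higher and 10.9% lower. Lcat, which esterifies HDL cholesterol and is activated by Apoa1, rose from 4119 ± 718 to 10700 ± 1170 (log2 fold change 1.39, SE 0.15, adjusted p = 9.76e-06), while Apoa1 did not pass. Lcat was at 10370 ± 1410 in hbHep and was 15240 ± 2440 in FAH liver. Abca1, which loads cholesterol onto Apoa1, differed by 0.35 between the tumor groups (SE 0.15, adjusted p = 0.109). The HDL receptor Scarb1 rose at day 6 (0.60, SE 0.18, adjusted p = 0.0215) and was lower again in hbHep (-0.59, adjusted p = 0.0187). The rise was lost without day 6 tumor 2 (0.0589) or YAP1on tumor 1 (0.0695), with equal sums (0.173) and with quantile normalization (0.0837), and the later difference without hbHep mouse 2 (-0.33, 0.117) and with the values as deposited (0.0573).

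Among receptor and clearance genes, Vldlr, a receptor that binds Apoe, fell in day 6 against YAP1on tumors (-1.76, SE 0.19, adjusted p = 5.75e-06). It then stood at 2058, 2836 and 2340 in the hbHep mice, against 153.7 to 260 in day 6 tumors and 117.4 to 179.9 in FAH liver, with no overlap. In hbHep Vldlr was 4.12 above FAH liver on the log2 scale (SE 0.21, adjusted p = 3.33e-09). Among genes of lipoprotein lipase regulation, Angptl4, which inhibits the lipase, fell in day 6 tumors (-1.07, SE 0.11, adjusted p = 5.48e-06). Lmf1, which matures the lipase, rose (0.57, SE 0.16, adjusted p = 0.0132), but not with equal sums (0.29, 0.114).

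Of 22 transcription factors known at apolipoprotein genes, 10 rose in day 6 tumors and none fell (median 0.49). At an unadjusted p under 0.05, 12 were higher and 0 lower. Among all genes tested, 12.8% were called higher and 10.9% lower. Hnf4a, a main activator of these genes in liver, rose by 0.46 (SE 0.16, adjusted p = 0.0459), near the threshold; with equal sums it was 0.18 (adjusted p = 0.435), with quantile normalization 0.26 (0.162), and the call was also lost without day 6 tumor 1 (0.096), 2 (0.135) or 3 (0.0753), without YAP1on tumor 1 (0.13) or 3 (0.0642), without hbHep mouse 1 (0.0563) and without FAH mouse 3 (0.0556). Nr0b2 (1.90), a repressor that partners nuclear receptors, Mlxipl (1.44), a factor that answers to glucose, and Foxa2 (0.97) rose the most. In hbHep against FAH liver, 8 of the 22 were lower and 2 higher, with Onecut1 (-2.11), Nr0b2 (-1.87) and Nr1h4 (-1.49), the bile acid receptor, the furthest below, and Hnf4a not past the test (-0.40, SE 0.18, adjusted p = 0.101). In that comparison 17% of all genes tested were called lower and 20% higher. Onecut1 was at 1061, 177.1 and 1107 in the 3 hbHep mice; without mouse 2 its difference was -1.24 (adjusted p = 0.000196), and it was then not the furthest below.

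How samples are brought to 1 scale bears on the directions above. With equal sums in each sample the median of all genes moved by -0.28, -0.42, -0.14, 0.54, 0.96 and 0.68 in the order day 6 against YAP1on, hbHep against YAP1on, hbHep against day 6, and hbHep, YAP1on and day 6 against FAH liver. The share of calls that were higher went from 54 to 20%, from 52 to 25.9%, from 52.7 to 40.7%, from 54 to 91.6%, from 51 to 85.5% and from 50.7 to 83.2% in the same order. With quantile normalization the median moved by -0.07 to 0.02 over the 6 comparisons, and with the values as deposited by -0.11 to 0.1. The rises of Apoa2, Apoa5, Apoc3 and Apoh and the fall of Apoa4 in day 6 tumors were kept with equal sums and with quantile normalization. The counts of called genes in the pathway lists above are from the main scaling only. With equal sums 6.28% of all genes were called higher and 25.1% lower in day 6 against YAP1on tumors. Some named calls of these lists were then lost, as given above.

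Open chromatin was mapped by Omni-ATAC, a method that tags DNA in nuclei where a transposase can reach it, in 1 library each of YAP1on, days 14, 33 and 64 off YAP1, and liver labeled WT. The deposited files list intervals on mm10, and with 1 library a condition the values below carry no replicate check. The intervals of the YAP1on library were much narrower (median 21 bases, 162 at most) than those of the others (medians of 61 to 72), and covered 19.7 Mb against 71.7, 57.5, 55.8 and 36.7 Mb at days 14, 33 and 64 and in liver. YAP1on coverage is therefore not compared with the rest.

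All 8 members with a promoter window had an interval in it in every library. Among all 27025 genes with a window, 47.8% had one in YAP1on, 52.2% at day 14, 50.5% at day 33, 50.6% at day 64 and 49.5% in liver. When at least 150 of the 300 bases had to be covered, the YAP1on library listed 0 of the 8 members and 2.32% of all genes; its median member had 91 of the 300 bases covered. Over the 2001 bases around a start, the median member had 1463, 1376, 1316 and 1300 covered bases (days 14, 33, 64 and liver), against 942, 896, 841 and 674 over all genes with any.

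The window of Apoa4, whose 250 bases are shown above, was covered at 300 of 300 bases at day 14 and at 254, 256 and 268 in the later libraries and liver. Over the whole gene and 1 kb on each side Apoa4 was the least covered of the 4 genes on chromosome 9, at 38.6, 33.7, 24.3 and 28.3% (days 14, 33, 64 and liver). Apoa1 was covered at 88.4, 84.2, 72.9 and 85.8%, Apoc3 at 76.6, 71.2, 66.6 and 59.4%, and Apoa5 at 81.9, 81.8, 78.6 and 73.8%. Apoe, on chromosome 7, was at 71.7, 77.6, 76.9 and 66.9%.

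Apom differed most. Its window, shown above, was covered at 300, 281 and 224 bases at days 14, 33 and 64 and at 144 bases in liver, and the gene with its flanks at 64.3, 34, 26.7 and 7.64%. Liver, with the least covered Apom gene, was the tissue with the highest Apom RNA (11330 ± 2940 in FAH liver, n = 3), though the RNA liver carries FAH Delta Exon 5 and the label of the ATAC liver, WT, names no Fah allele. Apoh was covered at 32.2, 20, 11.4 and 8.48% and Apob at 71.5, 60.5, 63 and 31.2%. The megabases covered in the whole genome also fell in this order of libraries, at 71.7, 57.5, 55.8 and 36.7.

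**Figure D4:**
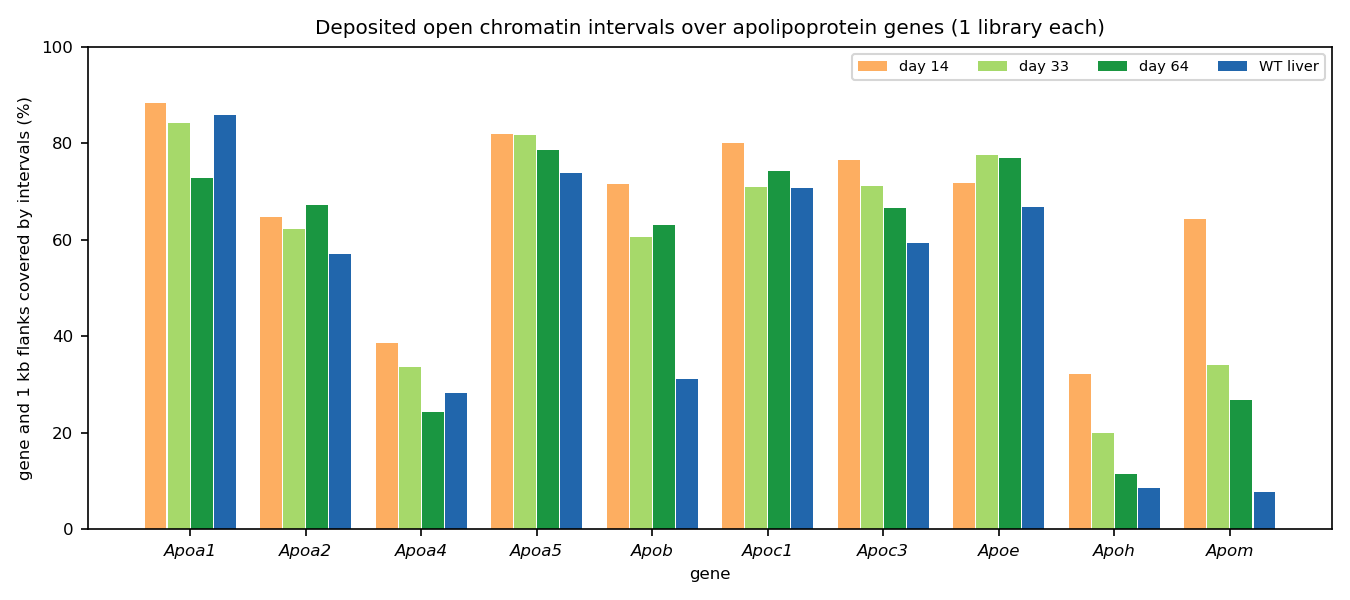
Share of each apolipoprotein gene, with 1 kb on either side, that lies in deposited open chromatin intervals (vertical axis, percent) at days 14, 33 and 64 off YAP1 and in WT liver, 1 library each; the YAP1on library is left out because its intervals are far narrower. Apom and Apoh are covered less in each later library and least in liver, and Apoa1, Apoa2, Apoa5, Apoc1, Apoc3 and Apoe stay above 55% throughout. The whole genome's covered megabases fall in the same order (71.7, 57.5, 55.8 and 36.7).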

How the data were processed

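The authors deposited RNA as a signal per gene and library, taken here to be scaled reads per base. The submitters' processing notes name GRCm38.p6, sleuth, kallisto 0.45.0 and bcl2fastq. The values are not counts, so no count model was used, and reads that fit several transcripts were divided among them by kallisto's estimation. For ATAC the authors deposited interval lists on mm10; the same notes name Picard, SAMtools, BWA, cutadapt and bcl2fastq. Which program made the intervals is not given in the sources used here, and the numbers beside them were not used. Intervals of 0 width were dropped.

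Each of the 17 libraries was divided by its median-of-ratios factor (0.9585 to 1.095), and technical libraries, 2 per hbHep mouse, were then averaged into 14 samples in all. Genes with an abundance of at least 10 in at least 3 samples were kept (17958). Tests were made on log2(abundance + 1), which understates changes of low genes, with limma 3.58.1 in R 4.3.3 (lmFit, then eBayes with its trend option), 1 model holding all 4 groups, with Benjamini-Hochberg adjustment over all genes and a threshold of 0.05; an adjusted p below is from this fit unless another test is named. Groups and replicate numbers came from the labels. Ratios were compared by exact permutation tests in scipy 1.17.1. The fit was tested on simulated data.

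The named genes are the 10 members, up to 3 called genes of each pathway list with the largest change, and Mttp, Abca1, Lcat, Scarb1, Apobec1, Apoc2 and Hnf4a; some genes that fall under this rule are not reported here. The members and lists were chosen with earlier results of these data known. Alternatives were 3 other scalings, 2 pseudocounts, no filter, no variance trend, 2 groups only, a replicate block, either technical library, and leaving out each of the 14 samples. Same-numbered samples did not deviate together (r from -0.23 to 0.19), so the numbers do not pair the samples.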

Additional observations from a re-analysis of the deposited data

Results flagged for a closer look

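In YAP1on tumors, tumor 4 had the lowest Apoc1 abundance, 13030, far from the nearest of the other 3 tumors at 24280; this gap is 0.89 of the whole range of the group, above Dixon's 95% critical value for 4 samples. The same tumor had the lowest Apoc3 of its group (6264) but the highest Apob (165700). Chance alone puts about 1 in 20 groups past that value, and only 20 groups of 4 tumors (10 genes, YAP1on and day 6) could be examined.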

How the results depend on the processing

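In day 6 against YAP1on tumors the counts of members called (5 higher, 1 lower) stayed within 1.5 times under every alternative, with 4 to 6 higher and 1 lower over the fits without 1 sample. In hbHep against YAP1on tumors 8 were higher (7 to 8 without 1 sample). The Apob call was lost with equal sums, quantile normalization, the replicate block and a model of only the 2 groups. The Apoa4 call was lost with the first technical library. The count of lower members went from 0 to 2 with equal sums and to 2 with quantile normalization, where 45.4% and 28.3% of all genes were called lower. In hbHep against day 6 tumors the 3 higher members became 3 to 5 without 1 sample, and the 2 lower members became 1 with the values as deposited, without a filter, with the replicate block and with the first technical library, and 1 to 2 without 1 sample, because the Apoa1 call was lost. In hbHep against FAH liver 6 were lower (5 to 7 without 1 sample) and 0 higher throughout. With quantile normalization the Apoa2 and Apoc1 calls were lost. The Apoa2 call was also lost with equal sums, the replicate block and a model of only the 2 groups. YAP1on tumors against FAH liver had 9 lower (8 to 9 without 1 sample) and 0 higher, or 1 higher with quantile normalization (31.9% of all genes). The Apoa4 and Apob calls were lost with equal sums and with quantile normalization. The Apob call was also lost with the replicate block and a model of only the 2 groups. Day 6 tumors against FAH liver had 8 lower (8 to 8) and 0 higher. The higher members became 1 with equal sums (58.8% of all genes) and 2 with quantile normalization (29.1%).

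The directions that turned were Apoa1 in day 6 tumors against FAH liver (0.64 with equal sums, 0.76 with quantile normalization), and, with quantile normalization, Apob in the same comparison (1.14), Apoa1 (0.78) and Apob (0.28) in YAP1on tumors against FAH liver, and Apoa2 in hbHep against FAH liver (0.11). The replicate block, with numbers that do not pair the samples, moved the Apoa1 call in hbHep against day 6 tumors (adjusted p = 0.118) and 3 others past the limma threshold: Apob in hbHep against YAP1on tumors (0.0611), Apoa2 in hbHep against FAH liver (0.0637) and Apob in YAP1on tumors against FAH liver (0.0646). When at least 150 bases of the promoter window had to be covered, the YAP1on library listed 0 of 8 members as open instead of 8, and 2.32% of all genes. Several intervals in a window count together, and the most covered member, Apoa5, had 147 bases covered. The other 4 libraries kept 7 or 8 members. Their shares of all genes were 40.2% at day 14, 40.3% at day 33, 39.6% at day 64 and 35.3% in liver.

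The number of reads behind the values was not recovered. High members have a large modelled spread, with which the differences of 0.79 in Apob and 0.84 in Apoe between the tumor groups did not pass. The tumors of each group come from 1 mouse, and the ATAC libraries have no replicates.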
